A study of Mus musculus with 8 samples.

Results

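The mRNAs of the cytosolic ribosomal proteins were examined in 8 RNA-seq libraries of mouse embryonic lung. Members were the records whose symbol begins with Rpl or Rps and follows the pattern of the family's gene names, with pseudogenes left out. The name pattern matched 84 records, of which Rps4l is annotated by RefSeq as a transcribed pseudogene, and the other 83 of the 24487 records in each table were the members, 52 of the large and 31 of the small subunit. The name rule uses no measured value, although earlier results of these data were known when the family was chosen. Of the 83 members, 80 had at least 1 FPKM (fragments per kilobase of transcript, scaled to the mapped fragments of the library) in every library and could be tested. Rps3a1, Fau and Gnb2l1 encode further ribosome components under names outside the pattern and are given separately.

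All mice were of strain C57BL/6, and all libraries came from lungs in which tamoxifen had induced a label on ribosomes. In TRAP (translating ribosome affinity purification) the ribosomes of the labelled cells are recovered by immunoprecipitation, here of L10, and the mRNA they carry is sequenced. The groups were TRAP of Sox9-mutant lungs at embryonic day 16 (E16, 2 libraries), TRAP of wild-type lungs at E16 (2 libraries), TRAP and whole-lung homogenate of wild-type lungs at E17 (1 library each), and TRAP and whole-lung homogenate of wild-type lungs at E14 (1 library each). For the E16 libraries the titles give E13 beside E16, and those of the other libraries carry 1 day. The titles name Sox9, a transcription factor of the growing tips of the lung epithelium, but which promoter or Cre line drove the label, whether animals were pooled and how the mutation was made are not given in the sources used here. The series' design text calls the E14 counterpart of the TRAP library supernatant, whereas its own label calls it whole-lung homogenate, the name used here. Nothing says that the replicate libraries came from separate litters, so p-values measure the spread between these libraries, which may be technical.

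The ribosome consists of a small subunit, which reads the mRNA, and a large subunit, which forms the peptide bond, each built of ribosomal RNA and a set of proteins present mostly in a single copy. Cells therefore make the mRNAs of all these proteins in large and roughly balanced amounts. In mammals most of these mRNAs begin with a C followed by a run of pyrimidines, the 5′ terminal oligopyrimidine or TOP motif, through which growth signals of the TOR kinase control how many ribosomes load onto them. Whole-tissue RNA counts all copies of such an mRNA, while TRAP counts copies bound by ribosomes of the labelled cells.

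Read as counting error, the deposited confidence bounds corresponded to between 9783768 and 21500523 fragments per library. The bounds followed counting error in 8636 of 12167 records, so these totals are approximate. Sox9 was at 12.8 and 11.03 FPKM in the mutant libraries, against 35.9 and 36.4 FPKM in the wild-type libraries (log2 difference of -1.53, SE 0.08, limma adjusted p = 0.000153), and at 68.5 and 63.9 FPKM in E17 and E14 TRAP, against 16.7 and 14.98 FPKM in whole lung. All 20 pan-epithelial markers were higher in TRAP than in whole lung, and 13 of 14 mesenchymal, 10 of 10 endothelial, 10 of 11 erythroid and 9 of 9 leukocyte markers were lower. A single microRNA record, Mir762, held 50.05% of all FPKM in wild-type library 1 and 34.0% in E17 TRAP and was at 0 in the other 6 libraries. The deposited values were therefore used without rescaling, and shares of the FPKM total are given without records under 200 bases.

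The sequence around the start site shows what these genes share beyond their names. RefSeq (GRCm38.p6) gave a start-site sequence for 63 of the 83 members, and the annotated start lay within 5 bases of the edge of the deposited record for 55 of them. Windows run from 10 bases before the annotated start to 20 bases from it, on the coding strand, and capitals mark a run that begins with C and holds at least 6 pyrimidines. The first 4 members below have the longest runs of those shown, and the other 7 are those on which the comparisons of level and fraction turn.
Rpl27a: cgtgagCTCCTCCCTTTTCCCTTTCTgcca
Rpl35: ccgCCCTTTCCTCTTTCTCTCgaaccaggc
Rpl15: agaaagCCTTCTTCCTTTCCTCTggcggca
Rpl7a: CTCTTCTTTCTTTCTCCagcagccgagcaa
Rps12: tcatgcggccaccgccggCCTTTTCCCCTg
Rpl12: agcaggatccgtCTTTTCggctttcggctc
Rplp0: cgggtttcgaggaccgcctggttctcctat
Rpsa: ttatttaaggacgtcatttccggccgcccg
Rpl10a: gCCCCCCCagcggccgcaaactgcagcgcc
Rpl36al: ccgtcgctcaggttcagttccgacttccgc
Rpl41: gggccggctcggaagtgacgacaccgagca

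The windows of Rpl27a (chr7:109519185-109519214), Rpl7a (chr2:26910797-26910826), Rpl12 (chr2:32961702-32961731), Rplp0 (chr5:115559457-115559486), Rpsa (chr9:120127756-120127785) and Rpl10a (chr17:28328461-28328490) lie on the plus strand. Those of Rpl35 (chr2:39005112-39005141), Rpl15 (chr14:18270967-18270996), Rps12 (chr10:23787190-23787219), Rpl36al (chr12:69184048-69184077) and Rpl41 (chr10:128549149-128549178) lie on the minus strand. Such a run was present in 33 of 63 members (52.4%), against 22.2% of the 16742 genes with a start-site sequence. In the 300 bases from 250 before to 50 after the start, read on both strands, CCGGAAG, a core that factors of the Ets family read, occurred in 38.1% of members, against 12% of all genes. TATAAA, the TATA box, occurred in 11.1% of members and 12.9% of all genes. Neither motif contains the other. A match is a description of the letters, not a bound site, and an annotated start can lie some bases from the one used in lung.

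Most members were among the abundant mRNAs of every library. The mean over the 8 libraries was at least 1000 FPKM for 66 members. Rpl41, which encodes the shortest protein of the large subunit, had the highest level, at 21080 and 23647 FPKM in mutant TRAP, 24615 and 25052 FPKM in wild-type TRAP, 7571 and 9022 FPKM in E17 TRAP and whole lung, and 8018 and 7903 FPKM in E14 TRAP and whole lung. All 4 E16 values of Rpl41 thus stood well above the other 4. Rps26, Rpl28, Rps28 and Rps12 followed. Rps26, a protein near the mRNA exit channel, spanned 3932 to 6625 FPKM over the 8 libraries.

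**Figure D1:**
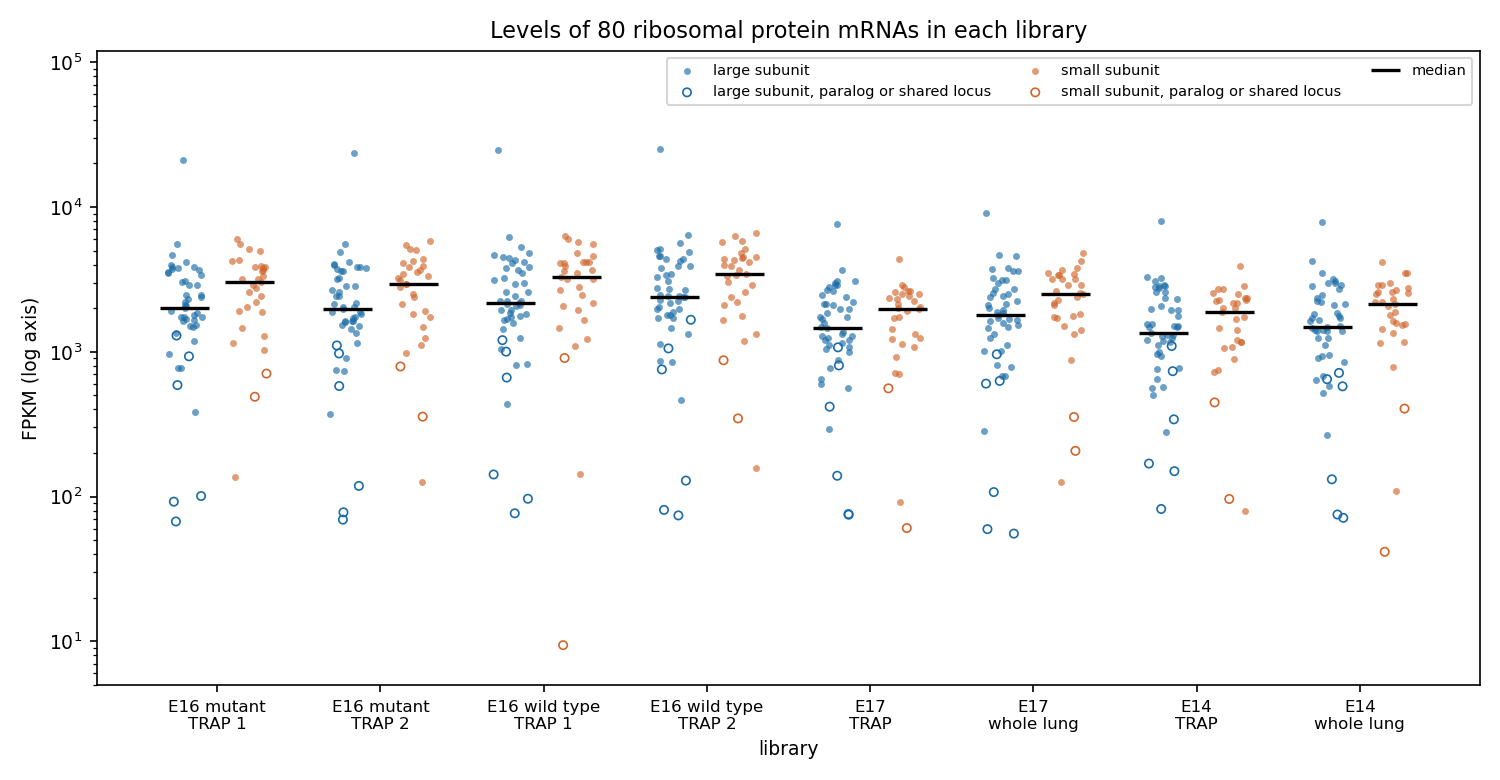
FPKM (log axis) of the 80 members with at least 1 FPKM in every library, with 1 point per member, the large subunit left and the small subunit right in each library, a bar at the median, and open circles for paralogs and for members that share their locus with another record. The small subunit's bar lies above that of the large subunit in all 8 libraries, and the Rpl41 point stands apart at the top, at 25052 FPKM in wild-type library 2.

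The members together held 30.0% and 29.7% of the FPKM in mutant TRAP, 31.7% and 32.8% in wild-type TRAP, 21.5% and 28.1% in E17 TRAP and whole lung, and 21.3% and 25.6% in E14 TRAP and whole lung. Both TRAP libraries of E17 and E14 were below both whole-lung libraries. The summed large-subunit FPKM was 1.41 and 1.45 times that of the small subunit in mutant TRAP and 1.44 times in both wild-type TRAP libraries. At E17 this ratio was 1.49 in TRAP and 1.34 in whole lung, and at E14 it was 1.502 in TRAP and 1.36 in whole lung. Both TRAP values lay above both whole-lung values, a split of 2 libraries against 2 for which an exact permutation test cannot give a two-sided p below 0.333. Without Rpl41 the ratio was 1.354 in both TRAP libraries of E17 and E14, against 1.22 and 1.24 in whole lung. Leaving Rpl41 out gave ratios of 1.175 and 1.182 for mutant TRAP and 1.19 and 1.197 for wild-type TRAP. These E16 ratios lay below both whole-lung ratios, so TRAP libraries then fell on either side of whole lung. The median member of the small subunit was higher than the median member of the large subunit in every library, for example 1990 against 1343 FPKM in E17 TRAP. These medians include Rpl10l, Rpl3l and Rpl39l of the large subunit, which were near 0. With paralogs left out they were 1995 against 1535 FPKM in E17 TRAP.

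The order of the members by level was nearly the same among the E16 libraries, between both other TRAP libraries and between both whole-lung libraries. Over the 72 members without paralogs and shared loci, Spearman's rho across members was between 0.995 and 0.997 for every pair of E16 libraries, 0.986 between E17 and E14 TRAP and 0.987 between E17 and E14 whole lung. Between TRAP and whole lung it was 0.893 at E17 and 0.911 at E14. The E16 libraries, although TRAP, gave 0.908 to 0.942 with E17 and E14 TRAP and 0.941 to 0.955 with whole lung. These are correlations across genes that share their length and annotation in all libraries, and members are not independent replicates.

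Several low values belong to loci whose signal is divided between records. For 4 members another record covers at least 90% of the same interval, and the FPKM of the locus was split between the pair. Rps27, a zinc-binding protein of the small subunit, had 489 and 356 FPKM in mutant TRAP, 9.41 and 346 FPKM in wild-type TRAP, 60.6 and 207 FPKM in E17 TRAP and whole lung, and 96.2 and 41.6 FPKM in E14 TRAP and whole lung. The record Rps27rt on the same interval had 4304 and 4382 FPKM in mutant TRAP, 5103 and 5119 FPKM in wild-type TRAP, 2096 and 3056 FPKM in E17 TRAP and whole lung, and 1676 and 2454 FPKM in E14 TRAP and whole lung. Rps27 thus held between 0.184% and 10.2% of the locus, and its wild-type libraries differed widely from each other while the Rps27rt values were close.

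Rpl26 held 2.51% to 8.83% of its locus beside Gm15772, Rpl30 held 4.44% to 10.8% beside Gm12191, and Rpl34 held 37.5% to 49.95% beside Rpl34-ps1. Gm15772 and Gm12191 are annotated as transcribed pseudogenes, and Rps27rt and Rpl34-ps1 as protein coding. With both records summed, the Rps27 locus would rank 11 by mean level, Rpl34 36, Rpl26 38 and Rpl30 43. Values of these 4 members are uncertain. Some results are also given without them or with the records of their loci summed. The FPKM shares, subunit ratios, subunit medians and folds of E16 include them as deposited. A further 24 members contain 36 small RNA records within their interval, 31 of which were at 0 in every library. Records named as pseudogenes of members, such as Rps15a-ps4, were not members, and reads from near-identical copies could be divided between them and the members.

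**Figure D2:**
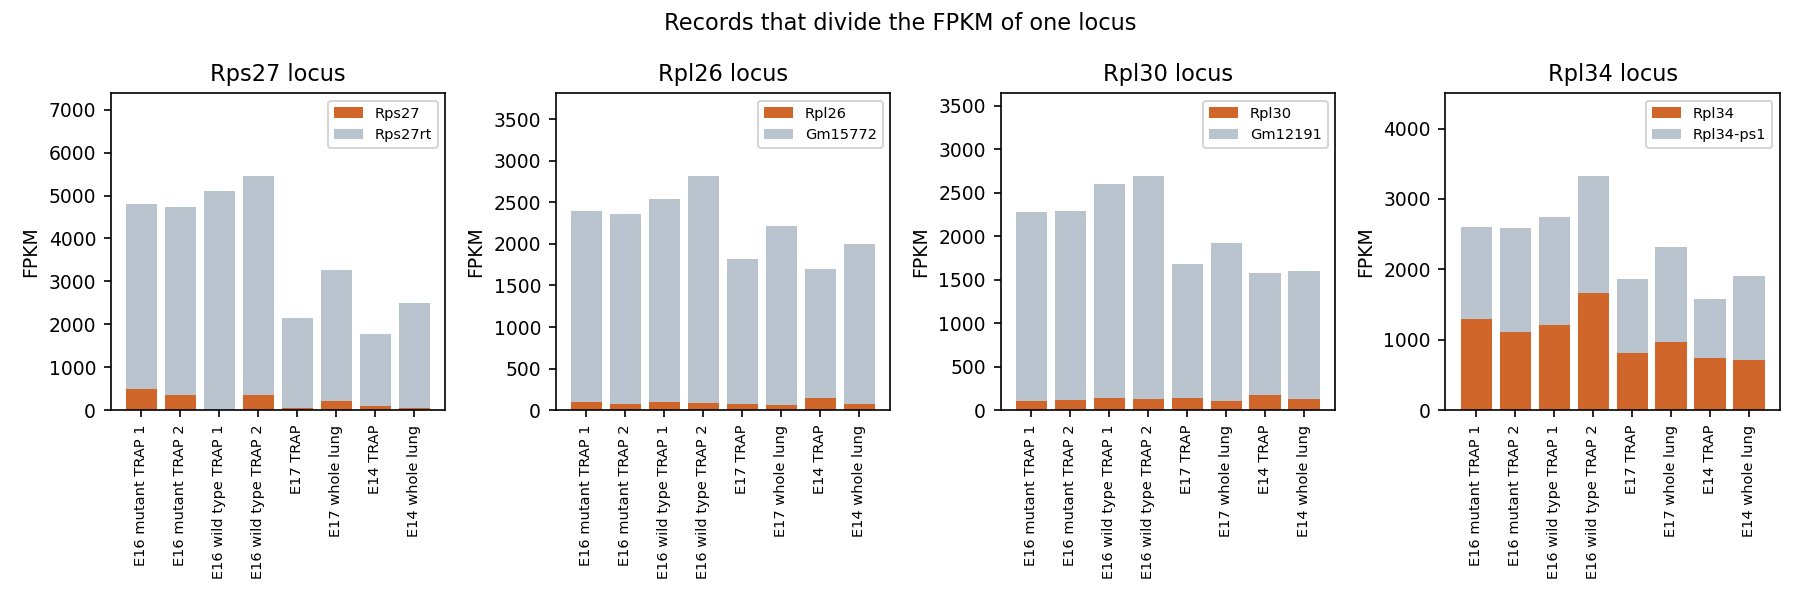
FPKM of the 4 loci whose counts are divided between a member (orange) and a second record (grey), stacked for each of the 8 libraries, on separate linear axes. The orange part is a small and changing share for Rps27, from 0.184% to 10.2%, while for Rpl34 it is between 37.5% and 49.95%.

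Paralogs, the members whose symbol ends in l, l1 or al, were the other low group. Rpl10l, a testis paralog of Rpl10, was listed at 0 in all 8 libraries. Rpl3l, the paralog of Rpl3 in striated muscle, did not exceed 0.112 FPKM, and Rpl39l, the testis paralog of Rpl39, did not exceed 0.381 FPKM. Rpl7l1, a ribosome-assembly relative of Rpl7, was between 59.6 and 82.1 FPKM. The remaining paralogs were well expressed: Rpl22l1 spanned 341 to 755 FPKM, Rps27l 355 to 906 FPKM and Rpl36al 629 to 1096 FPKM. Rpl22, the partner of Rpl22l1, was lower than its paralog in all 8 libraries, at 265 to 463 FPKM. Rps15a, at 79.5 to 157 FPKM, had the lowest FPKM of the members that are neither paralogs nor at a shared locus. Its bounds corresponded to 4926 to 19075 fragments per library, against 6977 to 20741 for Rps13, which was at 1412 to 2092 FPKM. FPKM divides by length, so the low FPKM of Rps15a is not a sign of few fragments.

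TRAP was compared with whole lung to ask which member mRNAs are over- or under-represented on the ribosomes of the labelled cells relative to the RNA of the whole organ. Most members had lower values in TRAP, and their median difference was negative under every scaling run except centring on the members, which sets it near 0 by construction. In the limma fit over both stages, 17 of 80 members were lower, 4 were higher and 59 did not pass the test, against 17.1% lower and 23.6% higher among the 12320 records tested. The median log2 difference was -0.20 for the members and 0.05 for all records. In the large subunit 7 of 49 fell and 4 rose, with a median of -0.15, and in the small subunit 10 of 31 fell and none rose, with a median of -0.27. The fit has 1 library per fraction and stage and 1 residual degree of freedom, so its error is the disagreement between E17 and E14.

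The lowest log2 difference was at the stalk of the large subunit, which recruits the elongation factors. Rplp0, the base of the stalk, was at 1206 FPKM in TRAP and 2993 FPKM in whole lung at E17, and at 1304 FPKM in TRAP and 2462 FPKM in whole lung at E14. Both TRAP values were less than every whole-lung value, and the log2 difference was -1.11 (SE 0.14, 2.16-fold lower, limma adjusted p = 0.00364). Rpl12, which holds the stalk base on the ribosomal RNA, was at 1736 FPKM in TRAP and 3211 FPKM in whole lung at E17, and at 1551 FPKM in TRAP and 2703 FPKM in whole lung at E14. Its log2 difference was -0.84 (SE 0.12, limma adjusted p = 0.00472). Of the acidic stalk proteins that bind Rplp0, Rplp1 fell by 0.60 on the log2 scale (SE 0.13, limma adjusted p = 0.016). Rplp2 did not pass, with 2965 and 3210 FPKM in TRAP, against 3606 and 3189 FPKM in whole lung (log2 difference of -0.14, SE 0.14, limma adjusted p = 0.462). The groups did not overlap for Rplp1 and overlapped for Rplp2. The share of all records whose TRAP and whole-lung values did not overlap was not counted.

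In the small subunit Rpsa, also known as a laminin receptor precursor, had the lowest difference. It was at 716 and 729 FPKM in E17 and E14 TRAP, against 1500 and 1353 FPKM in whole lung (log2 difference of -0.98, SE 0.11, 1.97-fold lower, limma adjusted p = 0.00263). Rps20, a protein of the head of the small subunit, was at 1990 and 1726 FPKM in E17 and E14 TRAP, against 3648 and 2971 FPKM in whole lung (-0.83, SE 0.12, limma adjusted p = 0.00527). Rps4x, the X-linked Rps4 gene, was at 1252 and 1173 FPKM, against 2383 and 1797 FPKM in whole lung (-0.77, SE 0.13, limma adjusted p = 0.00801). For each of these members both TRAP values lay below both whole-lung values. They were named for their low differences, as Rplp0 was, so this separation adds no support of its own. Rps12, Rps2, Rps7, Rps19, Rps6, Rps15a and Rps24 also passed as lower, with log2 differences between -0.74 and -0.41. In the large subunit Rpl22l1, Rpl17, Rpl23a and Rpl36a passed as lower, between -0.64 and -0.37.

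The members that rose in TRAP were Rpl36al, Rpl10a, Rpl26 and Rpl30, the last pair being members of shared loci. Rpl36al was at 1073 and 1096 FPKM in E17 and E14 TRAP, against 629 and 647 FPKM in whole lung (log2 difference of 0.76, SE 0.10, limma adjusted p = 0.0041). Its partner Rpl36a, whose protein is nearly identical, was at 1284 and 1118 FPKM in TRAP, against 1708 and 1412 FPKM in whole lung (-0.37, SE 0.11, limma adjusted p = 0.042). The paralog thus rose where its partner fell. Rpl22l1 fell, with 418 and 341 FPKM in TRAP, against 603 and 577 FPKM in whole lung (-0.64, SE 0.11, limma adjusted p = 0.00786). Its partner Rpl22 did not pass, with 294 and 278 FPKM in TRAP, against 283 and 265 FPKM in whole lung (0.06, SE 0.09, limma adjusted p = 0.618). Rps27l, a target of p53, was at 559 and 447 FPKM in TRAP, against 355 and 405 FPKM in whole lung, and did not pass (0.40, SE 0.14, limma adjusted p = 0.0775), nor did Rpl7l1 (0.26, SE 0.09, limma adjusted p = 0.0749).

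The immunoprecipitated protein is labelled L10, which may name the product of Rpl10 or Rpl10a. Rpl10a was at 2147 and 2066 FPKM in E17 and E14 TRAP, against 1663 and 1470 FPKM in whole lung (log2 difference of 0.43, SE 0.12, limma adjusted p = 0.0332). Rpl10 was at 1840 and 1515 FPKM in TRAP, against 2248 and 1723 FPKM in whole lung (-0.24, SE 0.11, limma adjusted p = 0.152). Whether transcripts of a tagged protein count into either record is not known. With the records of each shared locus summed, Rpl26 (-0.26) and Rpl30 (-0.11) turned to negative log2 differences and did not pass, and the Rps27 locus passed as lower (-0.55, SE 0.12, limma adjusted p = 0.0189).

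**Figure D3:**
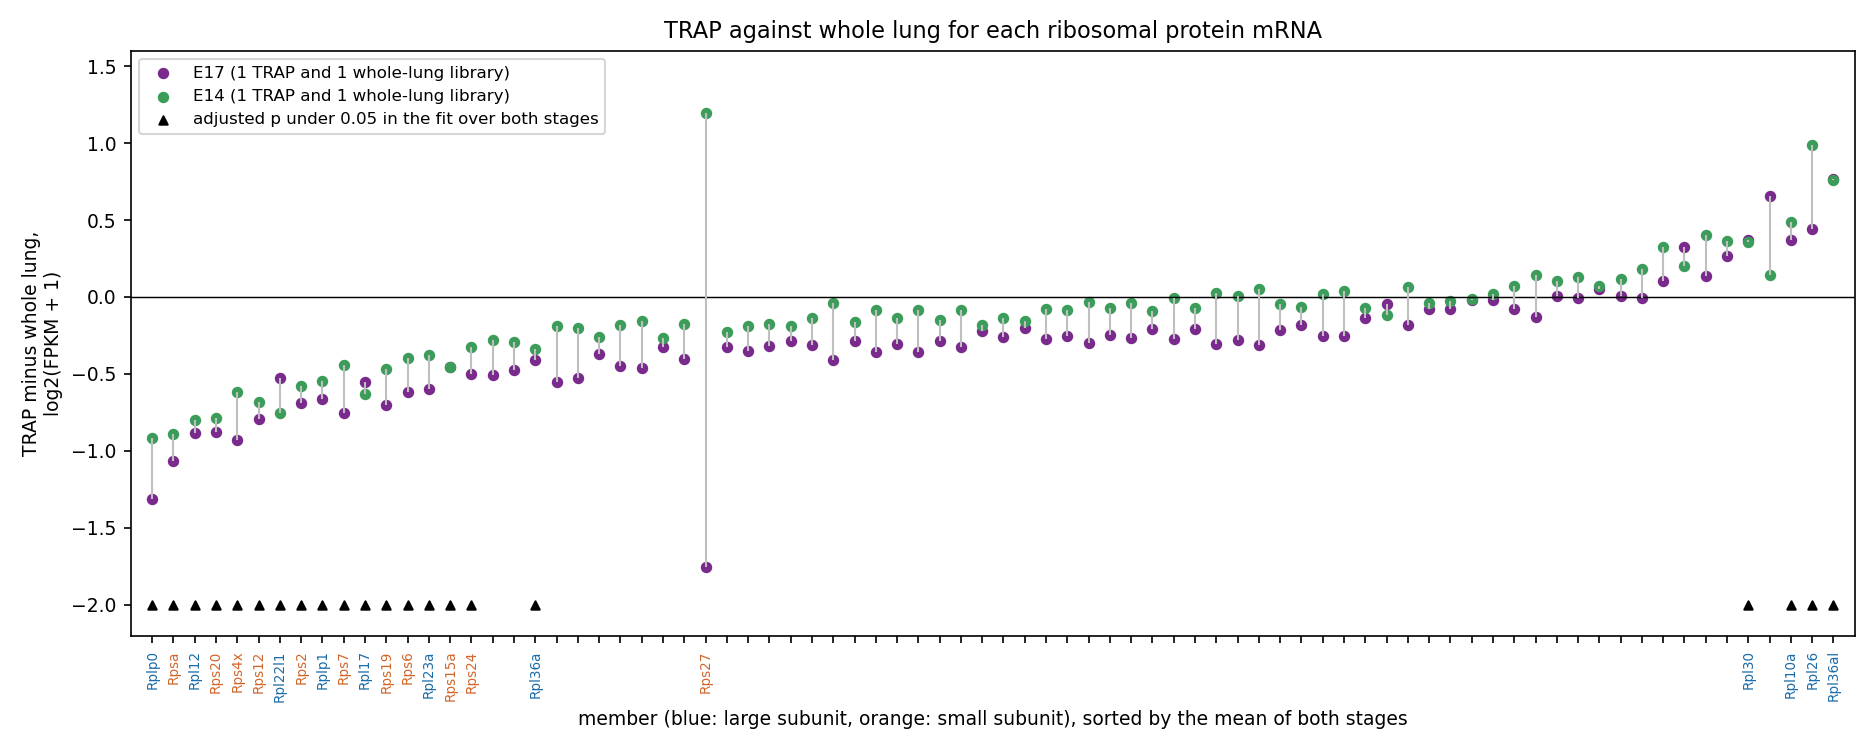
Difference of TRAP minus whole lung in log2(FPKM + 1) for the 80 members tested, sorted by the mean of both stages, with 1 point for E17 and 1 for E14 and black triangles under members with an adjusted p under 0.05, which are labelled by symbol as Rps27 is. Rplp0 is at the left end (-1.31 at E17, -0.92 at E14) and Rpl36al at the right end (0.77 and 0.76), and the Rps27 points lie far apart (-1.75 and 1.19).

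Both stages gave a similar order of differences. Of 80 members, 56 were below 0 at E17 and at E14, 12 were above 0 at both and 12 differed in sign. Of the 12320 records, 5403 were below 0 at E17 and 5899 at E14. The median of the members was -0.29 at E17 and -0.09 at E14, against 0.07 and 0.03 for all records. A lower value at E17 was seen in 73 of 80 members, and this share was not counted over all records. Each stage has 1 library per fraction, so a shift of 1 library moves most members together. Spearman's rho between the stages across members was 0.835, and 0.902 over the 76 members without shared loci. A difference of at least 1.5-fold was seen in 13 members that were lower and 2 that were higher at E17, against 15% and 14.3% of all records, and in 8 that were lower and 3 that were higher at E14, against 17.8% and 16.2% of all records.

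The members were also split by the pyrimidine run at the start. The median log2 difference was -0.19 both for the 32 tested members with a run and for the 28 without. Rps12 and Rpl12, printed above with a run, and Rplp0 and Rpsa, printed without one in this window, all passed as lower. Of 13 genes outside the family known from other work to carry a TOP start, 7 were lower in TRAP, none was higher and the median was -0.43. This list shares 8 genes with the other translation lists, 7 of them translation factors. Pabpc1, the cytoplasmic poly(A)-binding protein, was at 353 and 305 FPKM in E17 and E14 TRAP, against 636 and 696 FPKM in whole lung (-1.02, SE 0.12, limma adjusted p = 0.00293). Tpt1, a growth-related cytosolic protein, was at 1861 and 1773 FPKM in TRAP, against 3897 and 2725 FPKM in whole lung (-0.84, SE 0.15, limma adjusted p = 0.0098). Vim, an intermediate filament of mesenchymal cells, is also on this list and was lower in TRAP (-1.01, limma adjusted p = 0.0078).

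Other genes of the translation machinery were counted in the same fit. Among 34 ribosome biogenesis genes, whose products process ribosomal RNA and assemble subunits, 16 were higher in TRAP, none was lower and 18 did not pass. Their median was 0.29 and turned to -0.081 when libraries were rescaled to a common total, against -0.30 for all records. Nop10, a box H/ACA particle protein, was at 253 and 255 FPKM in E17 and E14 TRAP, against 128 and 142 FPKM in whole lung (0.91, SE 0.09, limma adjusted p = 0.00209). Gar1 and Nhp2 of the same particle were also higher (0.79 and 0.72). Of 29 initiation factors 9 were higher, with Eif3a (0.98) and Eif1ax (0.84) among them, and 3 were lower, with Eif3e (-0.74) among them. Of 6 elongation factors 2 were higher (Eif5a and Eef1d) and 3 lower (Eef1g, Eef1b2 and Eef1a1). Of the ribosome components outside the name pattern, Rps3a1 (-0.44) and Gnb2l1 (-0.47) were lower and Fau did not pass. Of 15 subunits and factors of RNA polymerases I and III, 4 were higher, among them Gtf3a (1.03), a transcription factor of RNA polymerase III genes, and 1 was lower. Of 13 genes of the TOR pathway, 2 were higher and 1 was lower.

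Cell type markers moved with fraction as well. The summed level of the 20 pan-epithelial markers was 3981 and 3431 FPKM in E17 and E14 TRAP, against 1411 and 738 FPKM in whole lung. The 15 mesenchymal markers summed to 132 and 125 FPKM in TRAP, against 1472 and 1181 FPKM in whole lung, and the 10 endothelial markers to 89.9 and 56.3 FPKM, against 518 and 276 FPKM. Erythroid markers summed to 5502 and 4614 FPKM in TRAP, against 20710 and 21298 FPKM in whole lung, and leukocyte markers to 15.5 and 9.88 FPKM, against 131 and 69.4 FPKM. Of all these markers only Ptprc in E17 TRAP was at 0 in these 4 libraries. Their part in the member differences was not tested, and in such bulk samples fewer cells of a type and less RNA per cell cannot be told apart.

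Stage was examined by comparing E17 with E14 in the same fit. The members differed little. No member was higher, Rpl26 alone was lower and 79 did not pass, against 9.51% higher and 6.36% lower among all records. At an unadjusted p under 0.05, limma gave 6 members higher and 2 lower, against 4209 of the 12320 records in either direction. After adjustment, limma-voom on the inferred fragments called 5 of 66 members higher and none lower. Among the 8513 records of that fit 791 were higher and 581 lower. Of 80 members, 75 were above 0, and the median log2 difference was 0.16, against 0.01 for all records. When libraries were rescaled to a common total it was -0.12, against -0.23 for all records. Rps27 (0.81), Rpl23 (0.40), Rpl17 (0.37) and Rpl10 (0.33) were highest, and none passed.

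Rpl23, a protein at the subunit interface, was at 994 FPKM at E17 and 777 FPKM at E14 in TRAP, and at 1246 FPKM at E17 and 910 FPKM at E14 in whole lung (SE 0.10, limma adjusted p = 0.057). Both E17 values of Rpl23 lay above the E14 value of the same fraction. Rpl26 was at 75.7 FPKM at E17 and 150 FPKM at E14 in TRAP, and at 55.5 FPKM at E17 and 75.2 FPKM at E14 in whole lung (-0.70, SE 0.15, limma adjusted p = 0.0362). With the records of its locus summed this difference was 0.12 and did not pass. Within single libraries the median was 0.05 in TRAP and 0.23 in whole lung. In TRAP none was at least 1.5-fold higher and 2 were lower (Rpl26 and Rps27), against 11.7% and 6.1% of all records. In whole lung 1 was higher (Rps27) and none lower, against 11.7% and 5.67% of all records. All of these are members of shared loci. Rpl30 (-0.28), Rpl7l1 (-0.19), Rps2 (-0.10) and Rpl36al (-0.03), the next lowest in the fit, did not pass.

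Ribosome biogenesis genes were counted in the same comparison. Of 34 tested, 22 were lower at E17, none was higher and 12 did not pass, with a median of -0.48. Noc2l, a relative of a yeast factor of large-subunit assembly, was at 33.7 FPKM at E17 and 67.3 FPKM at E14 in TRAP, and at 26.3 FPKM at E17 and 49.1 FPKM at E14 in whole lung (-0.93, SE 0.10, limma adjusted p = 0.00846). Ddx21, a nucleolar helicase, was at 15.9 FPKM at E17 and 29.8 FPKM at E14 in TRAP, and at 17.1 FPKM at E17 and 33.8 FPKM at E14 in whole lung (-0.91, SE 0.10, limma adjusted p = 0.0105). Nolc1, a nucleolar phosphoprotein, was also lower (-0.81). RNA polymerase I and III genes counted 3 lower (Polr1a, Polr1b and Rrn3) and none higher of 15, and initiation factors 4 lower and none higher of 29. As deposited, the members and the genes that build ribosomes gave medians of opposite sign. At a common total both were negative, at -0.12 and -0.76. The median of all records was then -0.23, below the members and above the biogenesis genes. The difference between the member and biogenesis medians was not tested. The pan-epithelial markers counted 7 higher and none lower, and the endothelial markers 6 higher and none lower of 10. Their part was not tested.

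The E16 wild-type TRAP libraries were set beside E14 and E17 TRAP in stage order, with no test. Levels did not follow the order of stages. In 75 of the 80 members both E16 values were above E14 and E17, against 24.2% of the 12248 records that reached 1 FPKM on average. The median over these members of the fold of E16 was 1.73 over E14 and 1.63 over E17, against 0.991 and 0.974 for all records. The median fold over E14 was 1.84 in the small and 1.62 in the large subunit. Rps20 was at 1726 FPKM at E14, 4612 and 4848 FPKM at E16 and 1990 FPKM at E17. Rps12, which lies at the beak of the small subunit, was at 2186 FPKM at E14, 5516 and 5762 FPKM at E16 and 2439 FPKM at E17.

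The 5 exceptions were Rpl26, Rpl30, Rps27, Rpl36al and Rpl7l1, all of them paralogs or members of shared loci. Rpl36al was at 1096 FPKM at E14, 1003 and 1055 FPKM at E16 and 1073 FPKM at E17, so its values stayed close while those of most other members did not. Erythroid markers summed to 4614 FPKM at E14, 511 and 556 FPKM at E16 and 5502 FPKM at E17. The E16 libraries therefore stood apart from the other TRAP libraries in both measures, and stage, labelling scheme and preparation cannot be told apart here.

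**Figure D4:**
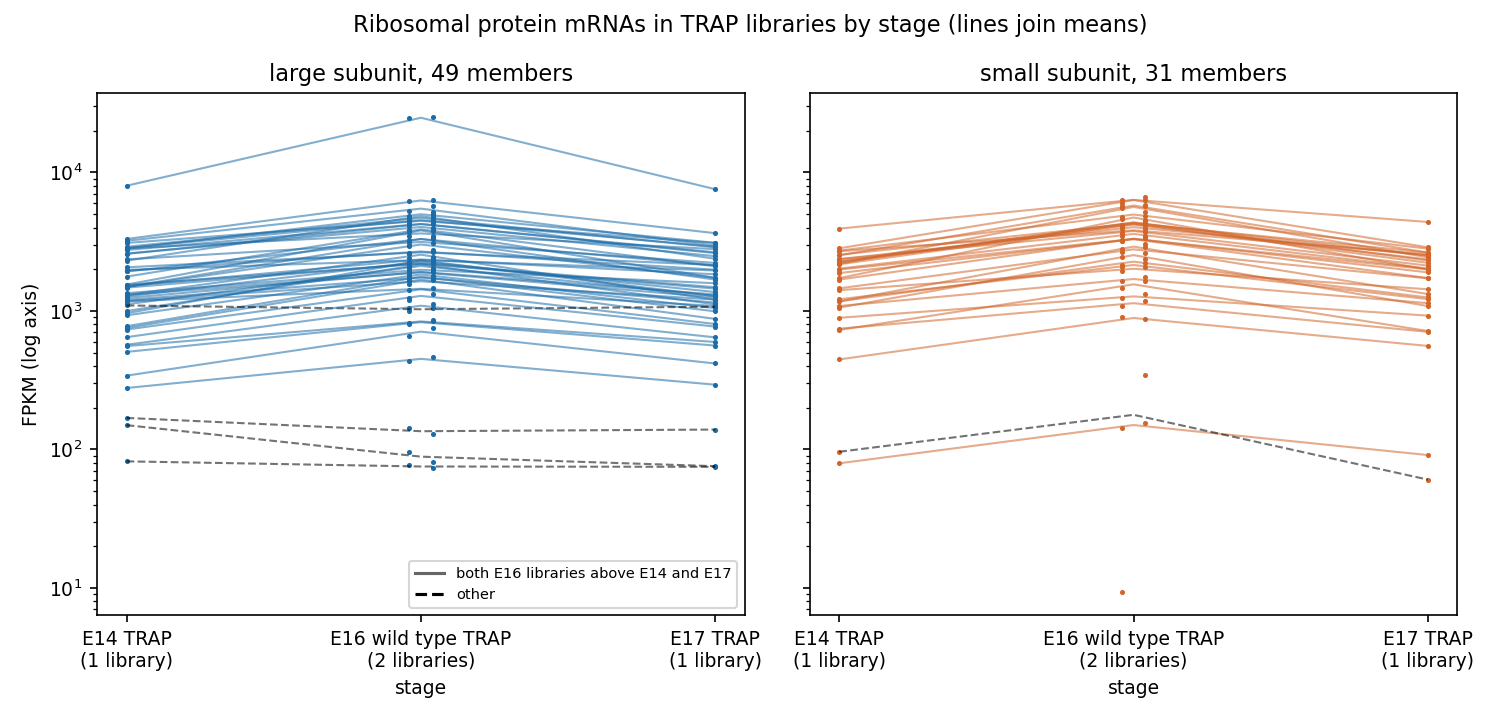
FPKM (log axis) of the 80 members in TRAP at E14 (1 library), E16 wild type (2 libraries, both points drawn) and E17 (1 library), with lines through the E16 mean, solid where both E16 libraries lie above E14 and E17 and dashed elsewhere. Nearly all lines peak at E16, and the highest line is Rpl41, with 8018 FPKM at E14 and 7571 FPKM at E17.

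The Sox9-mutant libraries were compared with the wild-type libraries at E16 to ask how ribosome-bound mRNA depends on Sox9 in the labelled cells. Nearly every member had a slightly lower value in the mutant, a direction that turned when libraries were rescaled to a common total. That rescaling put the median at 0.27 for the members and at 0.41 for all records. With short records left out before rescaling, the median of the members was -0.12 and 77 of 80 were below 0. Of 80 members, 79 had a log2 difference below 0 and in 75 both mutant values lay below both wild-type values, against 33.3% of the 11872 records tested. In 1 member, Rps27, both lay above, against 36.8% of records. After adjustment over all records, limma called 21 members lower and none higher, against 14.3% lower and 17.4% higher among all records, and 59 did not pass. At an unadjusted p under 0.05 limma gave 55 lower and none higher, against 5152 of the 11872 records in either direction. With limma-voom on the inferred fragments 21 of 66 members were lower and none was higher after adjustment. Among the 8311 records of that fit 1192 were lower and 1583 higher. The median difference was -0.19 for the members and 0.01 for all records. Relative to the median of all records, 79 of 80 members were lower under every scaling of the 4 libraries that was run. Scaling moves the records of a library almost together, so this count was largely fixed in advance and adds no support.

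The size of the difference was similar in most members. The median was -0.19 in the large subunit, where 12 of 49 members passed as lower, and also -0.19 in the small subunit, where 9 of 31 did. The interquartile range was 0.07 for the members and 0.34 for all records, which include records averaging as little as 1 FPKM. No comparison with records of equal abundance was made. Without shared loci the members ran from -0.30 to -0.05. Relative to the mean of the 4 libraries, the median of the 76 members without shared loci was -0.09 and -0.10 in the mutant libraries and 0.05 and 0.14 in the wild-type libraries. The mutant libraries were close to each other, and wild-type library 2 stood above wild-type library 1. The calls depended on single libraries, with 3 members lower without mutant library 1 or without mutant library 2, 14 without wild-type library 1 and none without wild-type library 2, in which case 1 was higher.

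**Figure D5:**
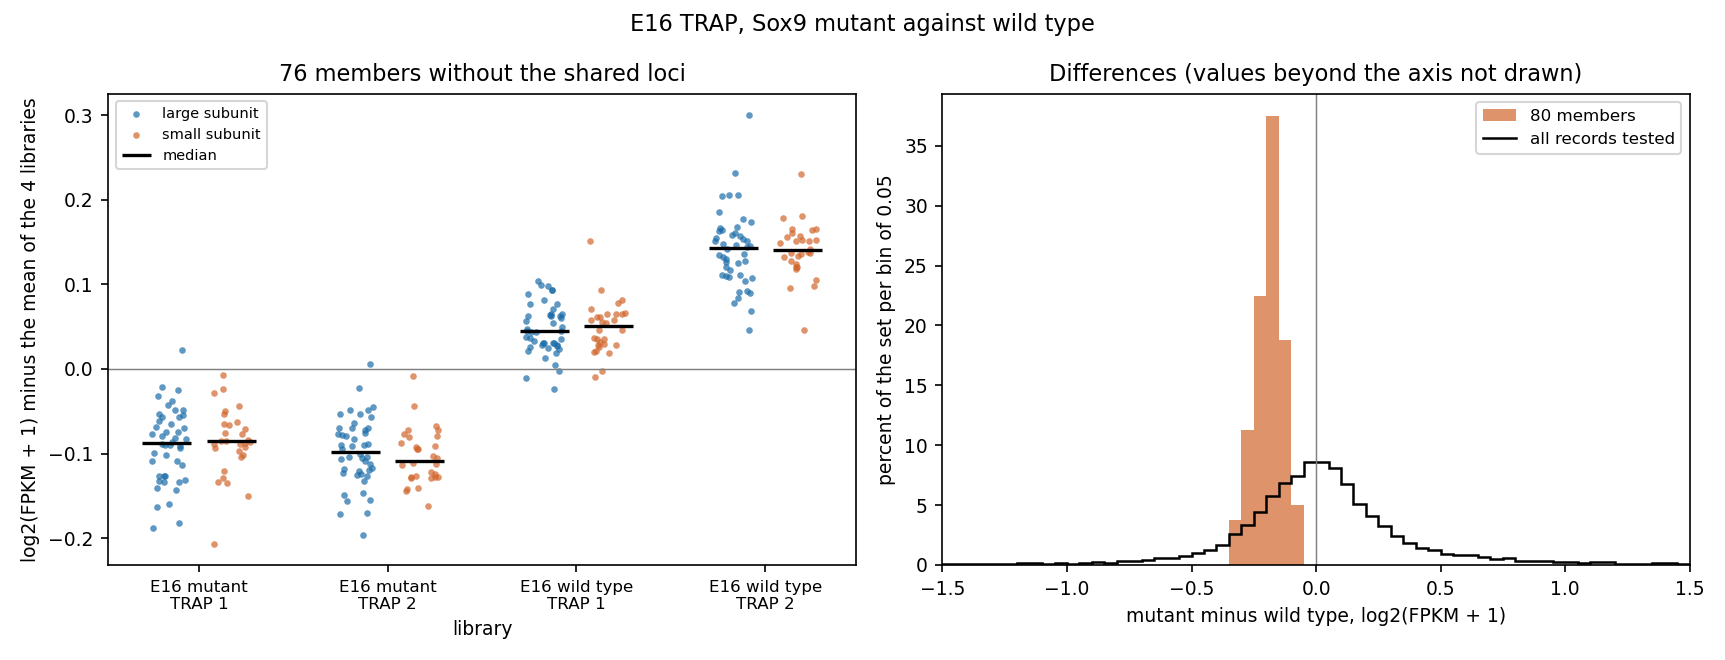
Left, log2(FPKM + 1) of the 76 members without shared loci in each E16 TRAP library, relative to the mean of the 4 libraries, with a bar at the median of each subunit. Right, the distribution of the mutant minus wild-type difference for the 80 members (filled) and for all records tested (line). The members form a narrow peak at about -0.19 within the wide distribution of all records. When libraries are rescaled to a common total, the median of the members moves to 0.27 and that of all records to 0.41.

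Rplp1 had among the lowest log2 differences, with 3853 and 3755 FPKM in the mutant libraries, against 4525 and 4872 FPKM in the wild-type libraries. It averaged 3804 ± 69.5 FPKM in the mutant and 4699 ± 245 FPKM in the wild type (SD, n = 2 each), which is 1.23-fold lower (log2 difference of -0.30, SE 0.07, limma adjusted p = 0.0218). Rpsa was at 1277 and 1252 FPKM, against 1467 and 1645 FPKM in the wild type (-0.30, SE 0.07, limma adjusted p = 0.0259). In both of these both mutant values lay below both wild-type values, as in 75 members and 33.3% of all records tested. Rplp0 averaged 2115 ± 19.3 FPKM in the mutant and 2548 ± 177 FPKM in the wild type (SD, n = 2 each), and fell by 0.27 on the log2 scale (SE 0.07, limma adjusted p = 0.0328). Rplp2, with 4686 and 4877 FPKM in the mutant, against 5280 and 5683 FPKM in the wild type, did not pass (-0.20, SE 0.07, limma adjusted p = 0.0884).

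Rpl30, which had the lowest difference, did not pass on its own record (-0.31, SE 0.09, limma adjusted p = 0.0502) and passed when the records of its locus were summed (-0.21, SE 0.06, limma adjusted p = 0.0364). Rpl29 did not pass either, with 1737 and 1831 FPKM in the mutant, against 1957 and 2428 FPKM in the wild type (-0.29, SE 0.11, limma adjusted p = 0.0958). At the other end, Rps27 was the only member above 0 (2.80, SE 1.502, limma adjusted p = 0.208), and the value turned to -0.15 with the locus summed, of which the Rps27 record held 0.184% in wild-type library 1. Rpl7a (-0.05), Rpl26 (-0.06), Rps21 (-0.10) and Rpl27 (-0.10) were nearest to 0 and did not pass. Rpl10 (-0.15) and Rpl10a (-0.14) did not pass.

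Among the paralogs Rpl22l1 fell (-0.28, SE 0.07, limma adjusted p = 0.0346), with 589 and 580.1 FPKM in the mutant, against 664 and 755 FPKM in the wild type, and so did Rps27l (-0.25, SE 0.07, limma adjusted p = 0.0415), with 707 and 792 FPKM, against 906 and 873 FPKM. Rpl36al (-0.11) and Rpl7l1 (-0.14) did not pass. Of the 21 members lower in the mutant, 8 were also among the 17 lower in TRAP than in whole lung, which is 38.1% of the first set, against 21.2% of all 80 members lower in TRAP, and 47.1% of the second set, against 26.2% of all 80 lower in the mutant. Whether the overlap exceeds these shares was not tested. These were Rpl22l1, Rpl23a, Rplp0, Rplp1, Rps2, Rps24, Rps7 and Rpsa. The comparisons share no library.

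Genes that build ribosomes were counted in the same fit. Of 34 ribosome biogenesis genes 12 were lower, 1 was higher (Bysl, 0.23) and 21 did not pass. Their median was -0.16 and turned to 0.25 when libraries were rescaled to a common total, against 0.41 for all records. Gar1 had 61.5 and 64.1 FPKM in the mutant libraries, against 84.6 and 89.1 FPKM in the wild type (-0.46, SE 0.05, limma adjusted p = 0.00195). Nop10 (-0.33) and Dkc1 (-0.42), the pseudouridine synthase of the same particle, were lower as well. Of the 13 other TOP genes 5 were lower and none higher, with Vim (-0.84) and Npm1 (-0.34) first. Of 29 initiation factors 2 were lower and 2 higher, with a median of -0.02, so this list lay near all records. Rps3a1 was lower (-0.26) and Fau and Gnb2l1 did not pass.

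Among upstream genes, Mycn, a transcription factor of the Myc family that acts on ribosomal genes, had 19.2 and 14.4 FPKM in the mutant libraries, against 44.9 and 46.3 FPKM in the wild type (-1.40, SE 0.13, limma adjusted p = 0.000951). Myc (0.67), Mycl (1.66) and Mxd4 (0.81) were higher and Max (-0.24) was lower. In the TOR list 2 of 13 were lower, Eif4ebp1 (-0.28), a repressor of cap-dependent initiation, and Rheb (-0.22), an activator of TOR. The pan-epithelial markers summed to 4397 and 4253 FPKM in the mutant, against 3217 and 3172 FPKM in the wild type, and 18 of 20 were higher and 1 lower. The mesenchymal markers summed to 86.9 and 157 FPKM in the mutant, against 127 and 168 FPKM in the wild type, with 1 of 14 higher and 1 lower. The endothelial markers summed to 52.7 and 41.5 FPKM, against 63.5 and 77.6 FPKM in the wild type, and leukocyte markers to 3.99 and 5.004 FPKM, against 4.23 and 3.74 FPKM. Erythroid markers summed to 519 and 577 FPKM in the mutant, against 511 and 556 FPKM in the wild type, with 2 of 7 higher and 1 lower. Ptprc was at 0 in both wild-type libraries. Their part in the member differences was not tested.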

How the data were processed

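The deposited tables give, per the file headers, an FPKM value and its confidence limits for each of 24487 records. The submitters' processing notes name TopHat2 2.0.14, Bowtie2 2.2.3, Cufflinks 2.2.1 and Cuffnorm as tools and mm10 as the build. Steps that set the library totals are not stated there. Deposited starts count from 0, and 1 was added.

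Sample titles gave the groups. Log2(FPKM + 1) of the records that averaged 1 FPKM or more was fitted with limma 3.58.1 (R 4.3.3) with a mean-variance trend, so fold changes of low genes are understated. Tests were two-sided, and p-values were adjusted over all records by the Benjamini-Hochberg method, with a threshold of 0.05. The mutant fit used the 4 E16 libraries. The 4 E14 and E17 libraries were fitted with fraction and stage as additive terms. Comparisons of single libraries have no test, and a 1.5-fold difference was counted on FPKM + 1. Inferred fragments are the squared ratio of a value to its standard error, taking the upper limit as 2 standard errors away. They gave the fragments per library and per member and the check of replicates against counting error, and served limma-voom as an alternative. They assume that the limits hold counting error only. This held for 66 members and for 8636 of the 12167 records above 0 in every library that averaged 1 FPKM or more. Limma-voom was run on such records only. The procedure was tested on simulated data with 200 changed records. Tables were handled with Python 3.11.15, pandas 2.3.3 and numpy 2.4.6.

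The members, gene lists and tests were chosen with earlier results of these data known. Named were the 5 highest and 5 lowest members of each fitted comparison and by level, the paralogs, Rpl10, Rpl10a, Rpsa, the stalk proteins and up to 3 genes per translation list and comparison with the smallest p. Other members and list genes given by symbol, such as Eef1a1, Eef1b2, Tpt1, Bysl, Myc and Max, were named after their values were seen. The titles do not say that same-numbered E16 libraries were pairs, and they were not treated as such. The correlation between their replicate differences was 0.00721 over all records tested and -0.579 over the 80 members. The value for the members includes Rps27, whose wild-type libraries differed widely, and was not computed without it. Such a correlation cannot show whether they shared a litter or preparation. Replicates differed by more than counting error. A few genes that these rules name are not reported here.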

Additional observations from a re-analysis of the deposited data

Results flagged for a closer look

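Rps27 moved in opposite directions at the 2 stages and in the 2 fractions. TRAP minus whole lung was -1.75 at E17 and 1.19 at E14 on the log2(FPKM + 1) scale, and E17 minus E14 was -0.66 in TRAP and 2.29 in whole lung. Each value rests on single libraries, so the difference between stages was not tested. The record shares its interval with Rps27rt, and the share of Rps27 in the locus was 2.81% and 6.34% in E17 TRAP and whole lung and 5.43% and 1.67% in E14 TRAP and whole lung. The sum of both records was 2156 and 3263 FPKM in E17 TRAP and whole lung and 1773 and 2496 FPKM in E14 TRAP and whole lung, so the locus as a whole was lower in TRAP at both stages.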

How the results depend on the processing

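Pseudocount and symbol-level sums left every count and median of members within 1.5 times, and so did a filter of 5 FPKM. The causes of the other changes were not tested, except that rescaling to a common total moves all records, since Mir762 holds 50.05% of wild-type library 1 in the mutant fit and 34.0% of E17 TRAP in the other fit, and that centring on the members sets their median near 0 by construction. The common total moved the median of all records to 0.41 in the mutant comparison, -0.30 in TRAP and -0.23 by stage, and a filter of 5 FPKM moved that of TRAP to 0.13. Over all records, 2063 were higher and 1692 lower in the mutant as deposited, against 175 and 57 at a common total and 1749 and 2336 centred on all records. In TRAP the counts were 2910 and 2105, against 546 and 2921 at a common total, and by stage 1172 and 783, against 672 and 2630 centred on the members.

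In the mutant comparison, the 21 lower members became 0 without a filter on low values, 0 (with 1 higher) at a common total, 51 centred on all records, 0 (with 1 higher) centred on the members, 0 to 14 (with 0 to 1 higher) without 1 library each, and 7 with a replicate block. Without wild-type library 2 none of the 21 still passed, and without wild-type library 1 12 did. The median became 0.27 at a common total (0.27 in both subunits), -0.12 with short records left out and the rest rescaled, and -0.023 centred on the members. At a common total the log2 differences turned to 0.15 for Rpl30, 0.16 for Rplp1 and Rpsa, 0.17 for Rpl29, 0.18 for Rpl22l1, 0.19 for Rplp0, 0.21 for Rps27l, 0.26 for Rplp2, 0.31 for Rpl10 and Rpl7l1, 0.32 for Rpl10a, 0.35 for Rpl36al, 0.36 for Rpl27, 0.37 for Rps21, 0.40 for Rpl26 and 0.41 for Rpl7a. With short records left out, Rpl26 turned to 0.011 and Rpl7a to 0.018. Centred on the members, Rpl10 turned to 0.021, Rpl7l1 to 0.029, Rpl10a to 0.033, Rpl36al to 0.0575, Rpl27 to 0.072, Rps21 to 0.074, Rpl26 to 0.11 and Rpl7a to 0.12. Rps27 turned to -0.15 with its locus summed, and Rpl26 spanned -0.19 to 0.066 without 1 library each.

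In TRAP against whole lung, the 4 higher and 17 lower members became 0 and 0 without a filter, where no record passed, and 0 and 4 at a common total. Centred on the members 14 were higher, with shared loci summed 2 were higher, with short records left out 41 were lower and with limma-voom, which tests 66 members, 40 were lower. Over all records, 4648 of 12320 were higher centred on the members and 2926 of 12316 with shared loci summed. With short records left out 2586 of 12280 records were lower, and with limma-voom 1693 of 8513. The median was -0.59 at a common total and 0.026 centred on the members (0.072 in the large subunit, 0.088 for Rplp2). At a common total Rpl30 turned to -0.021 and Rpl7l1 to -0.12, and with the locus summed Rpl30 turned to -0.11 and Rpl26 to -0.26.

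By stage, the 1 lower member became 0 without a filter, at a common total, with limma-voom (5 higher) and with loci summed, 2 with short records left out (1 higher) and 4 centred on the members. The median turned to -0.12 at a common total (large subunit -0.15, small subunit -0.10) and -0.077 centred on the members (-0.10 and -0.054). At a common total Rpl22l1 turned to -0.10, Rpl10a to -0.16, Rplp0 to -0.19, Rps27l to -0.21, Rpsa to -0.22, Rplp1 to -0.24 and Rplp2 to -0.25. Centred on the members they turned to -0.059, -0.12, -0.15, -0.17, -0.17, -0.19 and -0.20 in the same order. With short records left out Rps27l turned to -0.011, Rpsa to -0.015, Rplp1 to -0.034 and Rplp2 to -0.0445, and centred on all records Rplp2 turned to -0.0019. With loci summed Rpl26 turned to 0.12 and Rpl30 to 0.18. Leaving out 1 of the E14 and E17 libraries leaves no residual degree of freedom, so no test was run.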
